A study of Mus musculus with 12 samples.

Results

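Paraoxonases, superoxide dismutases, catalase, glutathione peroxidases and peroxiredoxin 6 were compared between spontaneous lung tumours and normal lungs of aged mice. The 10 listed genes were Pon1, Pon2, Pon3, Sod1, Sod2, Sod3, Cat, Gpx2, Gpx3 and Prdx6, and 9 of them were measured, out of 18193 genes with a single symbol on the array. No probe set (a group of short probes read as 1 value) carried Prdx6 as its only symbol, so Prdx6 was not analysed here. The 9 genes had 21 probe sets, and each gene was read from the probe set with the highest mean log2 signal over all 12 arrays. Total RNA of frozen tissue was read on 1 Affymetrix mouse array per sample. The control group held 6 normal lungs and the tumour group 6 spontaneous lung tumours, the mice of both being B6C3F1, a C57BL/6 by C3H cross, 2 years old, untreated and from a National Toxicology Program bioassay. Nothing in the labels says that samples came from separate animals, so the p-values speak only of the spread among these samples, which may be technical. The tissue is a mix of cells, and fewer cells of a type cannot be told apart from less RNA per cell.

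Superoxide dismutases turn superoxide into hydrogen peroxide, and catalase, glutathione peroxidases and peroxiredoxins then remove the peroxide. Sod1 works in the cytosol, Sod2 in mitochondria and Sod3 outside cells, where it is abundant in lung and vessel walls. Paraoxonases are lactone-splitting enzymes: Pon1 is made mainly by liver and travels in blood on high-density lipoprotein, Pon3 is also found on that particle, and Pon2 stays inside cells of many tissues.

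Of the 9 measured genes 3 fell in tumours, Pon1, Sod3 and Gpx3, and 2 rose, Pon3 and Pon2. Over all genes 17.4% fell, 12.1% rose and 29.5% did either at the same threshold, an adjusted p under 0.05 (limma, Benjamini-Hochberg over all probe sets). Sod1, Sod2, Cat and Gpx2 did not pass. Tumour and normal signals were fully separated for 4 of the 9, against 18.4% of all genes: 3 lower in tumours (11.7% of all genes) and 1 higher (6.74%). Among the 21 probe sets 3 rose and 4 fell, with 10.1% and 13.9% over all 45037 probe sets. The median difference of the 9 genes was -0.11, beside -0.08 over all genes. Each difference is the mean log2(signal + 16) of tumours minus that of normal lungs, ± the standard error with n = 6 arrays per group, and folds are computed from them.

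Normal lung 1 stood apart in the summed signal of 7 neutrophil markers, at 186392, against 3447 to 23086 in the other normal lungs and 2033 to 9912 in tumours. It was also the lowest normal lung for Pon2, Pon3, Sod1, Sod3, Cat and Gpx2. Without it the differences were 0.53 for Pon2 (adjusted p = 0.0243, limma), 0.85 for Pon3 (adjusted p = 0.0127) and -3.20 for Sod3 (adjusted p = 6.14e-06), and all of them passed.

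**Figure D1:**
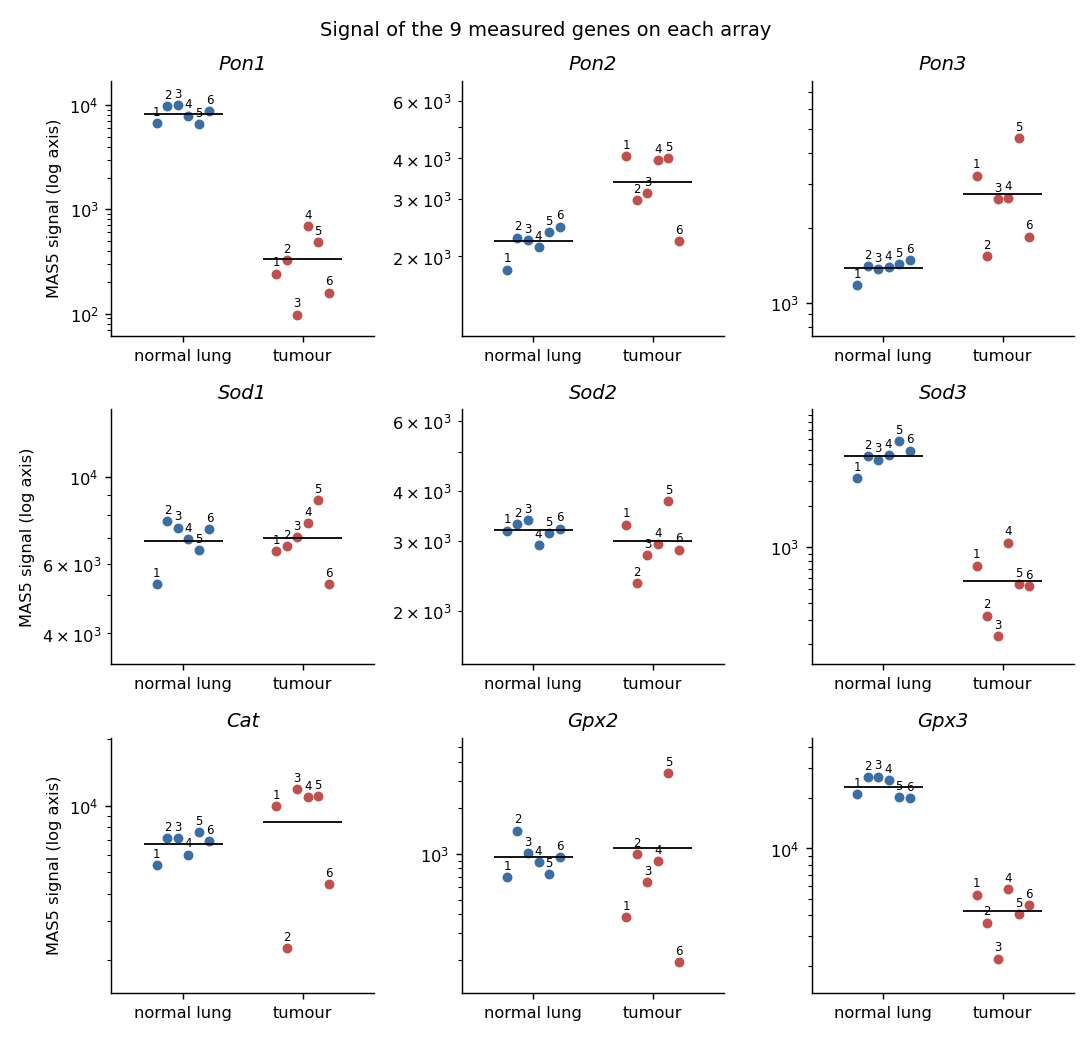
Signal of each measured gene on each array, on log axes, with normal lungs in blue and tumours in red. Numbers are the sample numbers and black lines the group means. All tumours lie below all normal lungs for Pon1, Sod3 and Gpx3, and above them for Pon3.

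The paraoxonase genes lie side by side on mouse chromosome 6, in the order Pon1, Pon3, Pon2 in the RefSeq annotation, and moved in opposite directions. The 250 bases before each start site are shown because these neighbours differ in how many CpG dinucleotides they hold there. The sequences are from RefSeq, build GRCm38.p6, minus strand, 5′ to 3′, with each CpG in capitals. They cover chr6:5193947-5194196 for Pon1, chr6:5256234-5256483 for Pon3 and chr6:5298341-5298590 for Pon2.
Pon1: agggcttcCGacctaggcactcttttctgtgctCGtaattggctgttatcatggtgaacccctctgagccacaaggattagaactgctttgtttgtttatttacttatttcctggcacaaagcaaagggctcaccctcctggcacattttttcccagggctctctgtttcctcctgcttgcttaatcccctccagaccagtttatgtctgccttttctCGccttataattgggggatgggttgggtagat
Pon3: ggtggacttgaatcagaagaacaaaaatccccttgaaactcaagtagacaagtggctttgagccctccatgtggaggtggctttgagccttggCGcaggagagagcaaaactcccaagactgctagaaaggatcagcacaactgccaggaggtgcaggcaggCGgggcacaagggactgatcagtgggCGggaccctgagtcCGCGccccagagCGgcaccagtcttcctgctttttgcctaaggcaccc
Pon2: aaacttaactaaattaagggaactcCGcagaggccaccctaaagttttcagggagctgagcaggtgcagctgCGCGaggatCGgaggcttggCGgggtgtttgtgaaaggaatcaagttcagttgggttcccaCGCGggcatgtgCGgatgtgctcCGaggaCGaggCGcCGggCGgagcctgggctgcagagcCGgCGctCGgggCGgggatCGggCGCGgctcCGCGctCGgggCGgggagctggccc
The Pon1 stretch held 3 CpG, the Pon3 stretch 6 and the Pon2 stretch 24. Over all 32851 promoters in the table the median was 6, and 88.0% held fewer than Pon2. Among the other measured genes with a promoter in the table, counts were 26 for Sod1, 15 for Sod2, 11 for Gpx3, 9 for Cat and 0 for Gpx2.

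Each promoter, from 250 bases before to 50 after the start, was also searched on both strands for the antioxidant response element core TGACNNNGCA, the motif read by Nrf2. Pon2 was the only gene to hold it among the 8 listed genes that have a promoter there, and 3.04% of all promoters did. In Pon2 it lies on the opposite strand, at bases 13 to 22 after the start, in the 30 bases at chr6:5298309-5298338, minus strand, printed with the core in capitals.
Pon2 core: cgtccggagcTGCTCGGTCAggcccgagcc
A match is a description of the letters and not a test of binding.

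Pon1 had the largest fall of the 9 genes and the 11th largest of all 18193 genes. Its signal in normal lungs 1 to 6 was 6677, 9829, 10021, 7928, 6609 and 8692. In tumours 1 to 6 it was 242, 327, 97.4, 690.0, 485 and 159. The highest tumour, number 4, was far below the lowest normal lung, and tumours varied among themselves more than normal lungs did, with SDs of 0.97 and 0.26 on the log2 scale. The means were 8293 ± 1489 and 333 ± 221 (SD, n = 6 each), a difference of -4.81 ± 0.35 (95% interval -5.55 to -4.07, adjusted p = 2.87e-07, limma), or 28.1-fold lower.

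Because Pon1 is a liver product, 19 liver genes were read beside it. Their summed signal was 28942 in normal lung 2 and 35366 in normal lung 4, and between 1616 and 5776 in the other 4 normal lungs. In tumours it lay between 924 and 6696. Albumin, the main plasma protein made by liver, was at 13843 and 13722 in those normal lungs. Of the 19 genes 8 fell in tumours and 0 rose. All 19 liver genes in normal lung 4, and 18 in normal lung 2, were above each of the other 4 normal lungs. Pon1 did not follow that split: the highest Pon1 signal was in normal lung 3, and normal lungs 1, 3, 5 and 6 had a mean of 8000 ± 1658 (SD, n = 4). Without normal lungs 2 and 4 the difference was -4.76 ± 0.42 (adjusted p = 2.41e-05, limma).

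**Figure D2:**
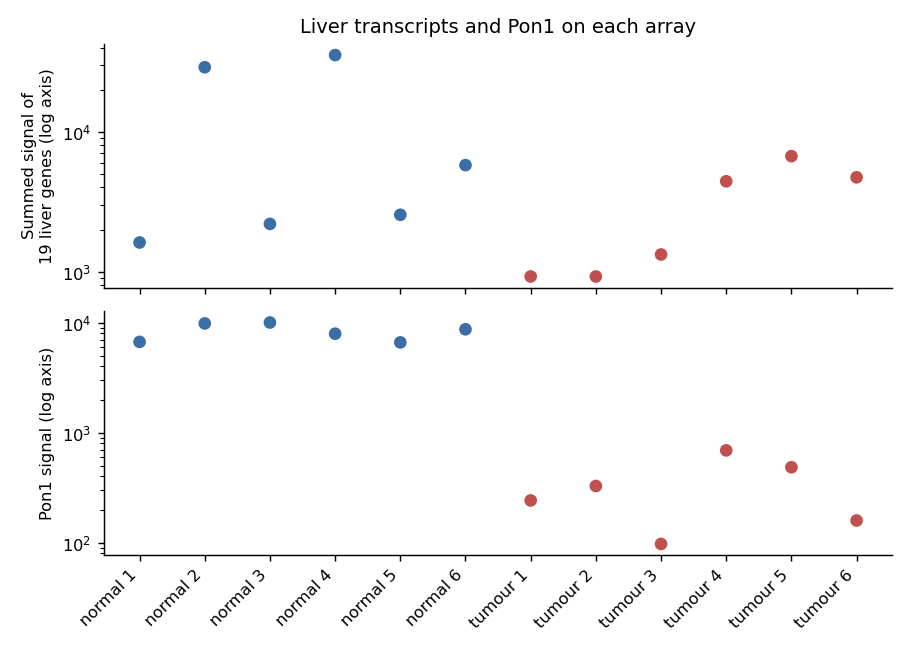
Summed signal of 19 liver genes (top) and Pon1 signal (bottom) on each array, on log axes, with normal lungs in blue and tumours in red. Normal lungs 2 and 4 stand highest in the liver sum, at 28942 and 35366, while Pon1 in all 6 normal lungs lies between 6609 and 10021.

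Pon3, a paraoxonase that splits lactones and statins, rose in tumours. It was at 1179.9, 1407, 1365, 1397, 1431 and 1490.2 in normal lungs 1 to 6. In the tumours, in the same order, it was at 3243, 1547, 2606, 2645, 4568 and 1846. All tumours lay above all normal lungs, tumour 2 only just, and normal lungs were close to one another. The means were 1378 ± 106 and 2742 ± 1081 (SD, n = 6 each), a difference of 0.90 ± 0.21 (95% interval 0.46 to 1.34, adjusted p = 0.0048, limma), or 1.86-fold higher.

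Pon2, the intracellular paraoxonase, rose as well. Normal lungs 1 to 6 had signals of 1823, 2284, 2251, 2137, 2379 and 2469.9. Tumours 1 to 6 had 4069, 2984, 3137, 3946, 4017 and 2234. The first 5 tumours were above every normal lung and tumour 6 lay within the normal range. The difference was 0.58 ± 0.15 (95% interval 0.27 to 0.90, adjusted p = 0.00928, limma), or 1.5-fold higher. A second Pon2 probe set also passed (0.51 ± 0.17, adjusted p = 0.0413), and the other 2, with group means under 140 signal units, gave -0.29 and 0.82 without passing. The probe set used for Pon2 has an ending that marks probes shared by several transcripts.

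The rise of Pon2 did not pass in either of 2 fits that allow for sex-linked transcripts, and that of Pon3 passed in 1 of them. The Y-linked gene Eif2s3y was at 740.5 to 1638 in tumours 1, 2, 3 and 5 and at 27.4 or less on the other arrays. With its log2 signal as a covariate, Pon2 was at 0.45 ± 0.20 (adjusted p = 0.155, limma) and Pon3 at 0.75 ± 0.28 (adjusted p = 0.0888). Without those 4 tumours, Pon2 was at 0.42 ± 0.20 (adjusted p = 0.187) and Pon3 at 0.68 ± 0.15 (adjusted p = 0.0109). Pon1, Sod3 and Gpx3 passed in both of these fits. The X-linked gene Xist was at 7877 to 11265 in normal lungs. In tumours Xist had a median of 93.6 and ran from 47.1 to 12621. Kdm5d and Uty, also Y-linked, rose in tumours. Sex-linked transcripts thus differed between the groups, and for every gene sex and group cannot be fully told apart.

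On the far side of each end of the paraoxonase cluster the nearest measured genes did not pass. Ppp1r9a, a neuronal scaffold protein gene and the nearest measured gene beyond Pon1, with unmeasured lncRNA genes between, was at 1430.2 ± 251 in normal lungs and 3629 ± 2321 in tumours (0.97 ± 0.45, adjusted p = 0.141, limma). Asb4, beyond Pon2, was near the bottom of the scale in both groups, at 15.2 ± 15.4 and 42.3 ± 31.7 (SD, n = 6 each).

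Sod3, the extracellular superoxide dismutase, fell while the enzymes of cytosol and mitochondria did not pass. Its signal in normal lungs 1 to 6 was 3145, 4562, 4285, 4592, 5791 and 4971. The tumours, in order, stood at 738, 322, 229, 1080.0, 544 and 522. Every tumour was below every normal lung, with tumour 3 lowest and tumour 4 highest. The means were 4558 ± 868 and 573 ± 306 (SD, n = 6 each), a difference of -3.10 ± 0.29 (95% interval -3.72 to -2.48, adjusted p = 2.19e-06, limma), or 8.59-fold lower. Its second probe set fell too, from 1840.0 ± 236 to 314 ± 203 (-2.76 ± 0.38, adjusted p = 6.65e-05).

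Sod1, the copper and zinc enzyme of the cytosol, was at 5338, 7741, 7442, 6959, 6507 and 7375 in normal lungs 1 to 6. In tumours 1 to 6 it was at 6483, 6681, 7039.6, 7645, 8740.3 and 5342. The groups overlapped almost fully, and the difference was 0.01 ± 0.13 (95% interval -0.27 to 0.30, adjusted p = 0.959, limma). The other 4 Sod1 probe sets gave differences of -0.25, 0.17, 0.35 and -0.20, and none passed.

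Sod2, the manganese enzyme of mitochondria, lay between 2921 and 3386 in normal lungs. Tumours 1 to 6 were at 3293, 2344, 2759.6, 2947, 3771 and 2848. Tumours 2, 3 and 6 were below every normal lung and tumour 5 above them, so the spread was wider in tumours, with log2 SDs of 0.23 and 0.07. The difference was -0.11 ± 0.11 (95% interval -0.35 to 0.14, adjusted p = 0.568, limma). None of the other 3 Sod2 probe sets passed, the largest difference among them being -0.47 ± 0.19 (adjusted p = 0.0916).

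**Figure D3:**
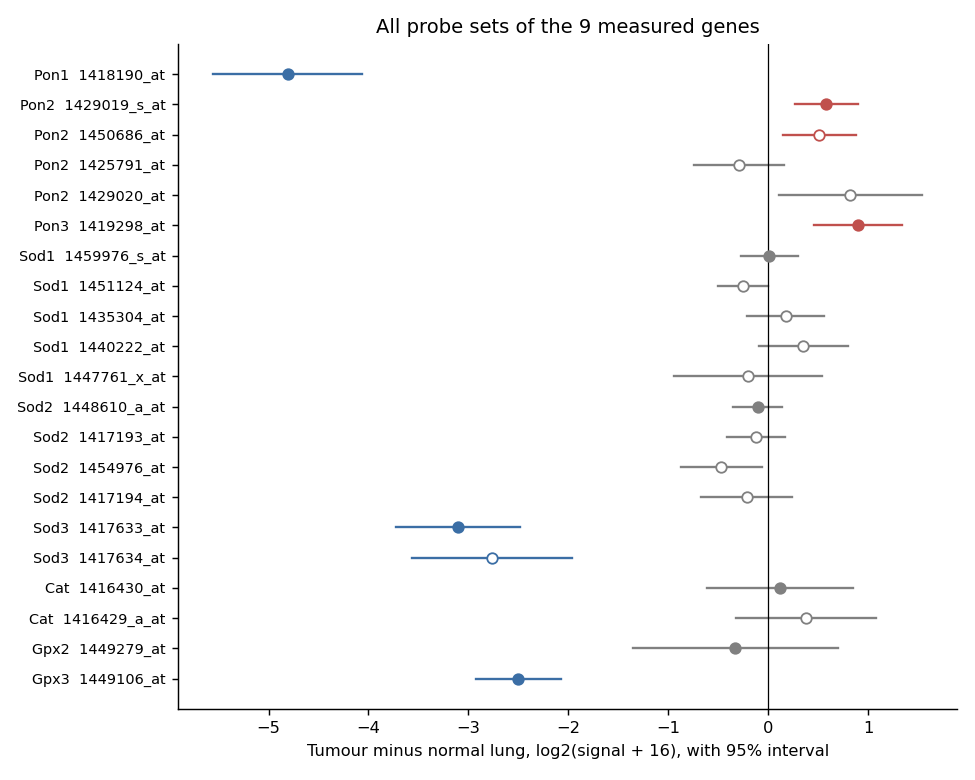
Difference of each of the 21 probe sets, with 95% intervals, on the log2(signal + 16) scale. Filled points are the probe sets used for a gene and open points the others, red marks a rise past the threshold, blue a fall and grey neither. Both Sod3 probe sets fell, and no probe set of Sod1, Sod2 or Cat passed.

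Cat encodes catalase, the peroxisomal enzyme that splits hydrogen peroxide, and its level divided the tumours. Normal lungs 1 to 6 had 5409, 7115, 7169, 6016, 7613 and 6948. Its signal in tumours 1 to 6 was 9998, 2276, 11934, 10968, 11040.3 and 4431. Tumours 1, 3, 4 and 5 were above every normal lung, and tumours 2 and 6 below every one. The group difference was 0.12 ± 0.34 (95% interval -0.61 to 0.85, adjusted p = 0.844, limma), and log2 SDs were 0.97 in tumours and 0.19 in normal lungs. Tumour 2 was also lowest on the second Cat probe set, at 2436, while tumour 6 was there at 6262, within the normal range of 4543 to 7657. That probe set gave 0.38 ± 0.33 (adjusted p = 0.457).

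Tumours 2 and 6 were also the lowest tumours for Pon3, and the lowest for Pon2 on the probe set used. On the second Pon2 probe set that passed, tumour 6 was lowest, at 1372. There tumour 2, at 2493, was above tumours 3 and 5, at 1895 and 2325. Tumours 2 and 6 had the lowest summed signals of 7 alveolar type II markers, genes of the surfactant-making cell, at 115008 and 92499.7. The other tumours had 166662 to 212186 and normal lungs 102858 to 144907. Of the 7 type II markers 4 rose in tumours and none fell. Summed signals of 7 alveolar macrophage markers were lowest in the same tumours, at 10542 and 30422, against 36165 to 60494 in the others. Their part in the Cat, Pon2 and Pon3 values was not tested.

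**Figure D4:**
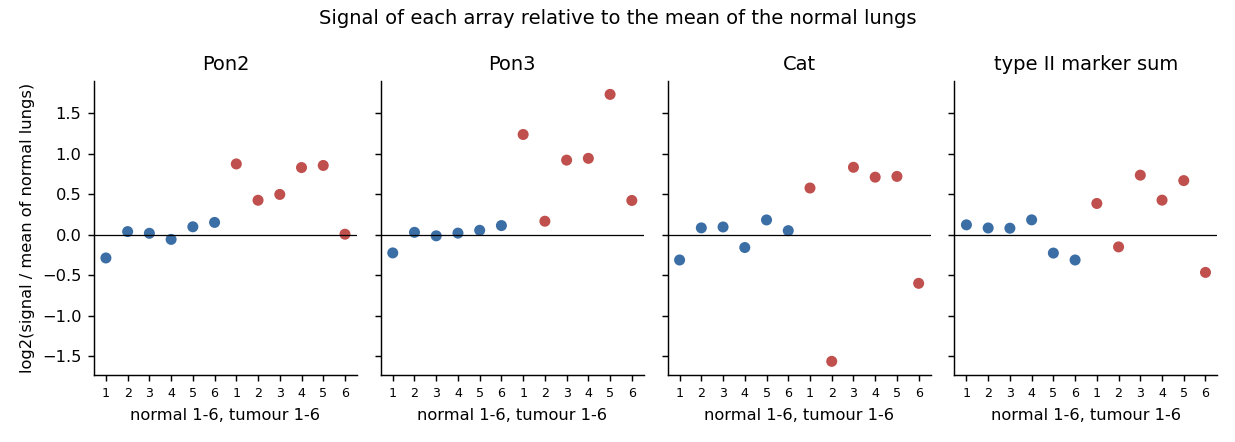
Signal of Pon2, Pon3, Cat and the sum of 7 type II markers on each array, as log2 of the ratio to the mean of the normal lungs, with normal lungs in blue and tumours in red. Tumours 2 and 6 are the lowest tumours in all 4 panels.

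Gpx2, the glutathione peroxidase of gut epithelium and a known Nrf2 target, varied most among tumours of the 9 genes. It was at 706, 1418, 1011, 879, 736 and 949 in normal lungs 1 to 6. Tumours 1 to 6 were at 384, 999.6, 653, 890.2, 3393 and 195. Tumour 5 was above every normal lung, tumours 1, 3 and 6 below every one, and tumours 2 and 4 among them. The difference was -0.33 ± 0.48 (95% interval -1.35 to 0.70, adjusted p = 0.683, limma), with a log2 SD of 1.36 in tumours. It was at -0.79 ± 0.63 with Eif2s3y as a covariate (adjusted p = 0.478) and at -1.11 ± 0.43 without the tumours with Eif2s3y (adjusted p = 0.111). Summed signals of 10 gastric and intestinal genes were highest in tumours 2, 4 and 6, at 30068 to 34421, and tumour 5, highest for Gpx2, had 10858. Cldn18 and Tff1, with means of 6041 and 1155 in normal lungs, make up most of that sum there and did not pass. A link between these genes and Gpx2 was not tested.

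Gpx3, the secreted glutathione peroxidase of plasma and extracellular fluid, fell. It was at 20976, 26568, 26740.5, 25407, 20236 and 19919 in normal lungs 1 to 6. Tumours 1 to 6 had 5312, 3616, 2211, 5754, 4086 and 4583. Every tumour lay below every normal lung, with tumour 3 lowest, as it was for Pon1 and Sod3. The means were 23308 ± 3261 and 4260.3 ± 1272 (SD, n = 6 each), a difference of -2.50 ± 0.20 (95% interval -2.93 to -2.07, adjusted p = 5.83e-07, limma), or 5.65-fold lower.

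Markers of several cell types of normal lung moved with these falls. All 10 endothelial markers fell, with summed signals of 57769.5 to 78550.4 in normal lungs and 4288 to 11438 in tumours. All 6 smooth muscle markers fell (15357 to 27648 and 2984 to 8326), as did all 8 ciliated markers (10401 to 13625 and 715 to 2760.5). Among fibroblast and interstitial markers 5 of 8 fell (36018 to 48195 and 7871 to 24565), and among type I markers 7 of 8 (98405 to 119079 and 24746 to 52534). Among club and secretory markers 6 of 8 fell (151674 to 209919 and 29663 to 95512) and 1 rose. The riser was Scgb3a1, from 875 ± 863 to 9725 ± 8373 (SD, n = 6 each; 2.90 ± 0.90, adjusted p = 0.0283, limma). Among mesothelial markers 4 of 6 fell, but their sums overlapped (3370 to 7467 and 88.0 to 12521). Tumour 6 was above every normal lung in that sum, and tumour 2, at 4849, was within their range. Most of the highest tumour sum was Msln, which ran from 2.57 to 12120 in tumours and did not pass. For each of the 4 that fell, Upk3b, Gpm6a, Rspo1 and Upk1b, all tumours lay below all normal lungs. Of 7 alveolar macrophage markers 4 rose, as did 4 of 10 gastric and intestinal genes. None of 7 neutrophil markers, which were far higher in normal lung 1, passed. No marker in any of these lists or the type II list was under 16 signal units on all arrays. The part of these cell types in the falls of Pon1, Sod3 and Gpx3 was not tested.

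Among 9 measured genes of the other glutathione peroxidases and peroxiredoxins 3 rose and 1 fell, with a median of 0.16. Counts in this and the following lists stand beside 12.1% of all genes rising and 17.4% falling, and no list was tested as a set. The risers were the peroxiredoxins Prdx2, Prdx3 and Prdx4, thiol enzymes that reduce peroxide in cytosol, mitochondria and the secretory pathway, and for each of them all tumours lay above all normal lungs. Prdx2 rose from 3332 ± 288 to 7835 ± 2674 (1.17 ± 0.19, adjusted p = 2.88e-04, limma). It is also abundant in red cells, whose 3 measured markers summed to 1886 to 7702 in normal lungs and 134 to 1385 in tumours, 2 of them falling; their part in the Prdx2 values was not tested. Prdx4 rose by 1.33 ± 0.23 and Prdx3 by 0.79 ± 0.13. Gpx7, a peroxidase of the endoplasmic reticulum, fell (-1.19 ± 0.33, adjusted p = 0.0151). That call was lost without the tumours with Eif2s3y (-0.23, adjusted p = 0.60), with Eif2s3y as a covariate (-0.46, adjusted p = 0.429) and without normal lungs 2 and 4 (-1.11, adjusted p = 0.073). Gpx1 and Gpx4, the main cytosolic and the lipid-protecting enzyme, were at 0.31 ± 0.15 and -0.08 ± 0.15 and did not pass.

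The thioredoxin and glutaredoxin cycle restores oxidised thiols, and 3 of its 15 genes rose and 2 fell (median 0.32), near the shares over all genes. Glrx, the cytosolic glutaredoxin, rose from 925 ± 581 to 2917 ± 608 (1.77 ± 0.27, adjusted p = 1.58e-04, limma), with Glrx2 (0.62 ± 0.12) and the sestrin Sesn3 (1.09 ± 0.21). Another sestrin, Sesn1, a p53 target, fell from 1549 ± 221 to 498 ± 88.6 (-1.61 ± 0.14, adjusted p = 1.22e-06). Txnip, the thioredoxin inhibitor, fell by 0.45 ± 0.13. That call was lost after median centring (adjusted p = 0.163), without normal lungs 2 and 4 (adjusted p = 0.107) and with the replicate number as a block (adjusted p = 0.0612). It was also lost in both fits that use Eif2s3y (adjusted p = 0.211 and 0.19). The reductases Txnrd1 (0.22 ± 0.14) and Gsr (0.60 ± 0.29) did not pass.

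Of 6 genes that deliver copper, the metal of Sod1 and Sod3, 1 rose and 1 fell (median -0.06). Atox1, the chaperone that hands copper to the secretory pathway where Sod3 is loaded, rose from 2425 ± 268 to 6127 ± 1744 (1.29 ± 0.17, adjusted p = 5.49e-05, limma), with all tumours above all normal lungs. Slc31a2, a copper transporter, fell (-0.63 ± 0.19, adjusted p = 0.0231). It no longer passed when normal lung 2 (adjusted p = 0.0552), normal lung 4 (0.0545) or both (0.133) were left out, after median centring (0.103) or with Eif2s3y as a covariate (0.135). Ccs, the chaperone of Sod1, was at 0.07 ± 0.11.

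Gpx2 and Gpx3 are selenoproteins, and of 9 genes that build or supply selenoproteins 1 rose, Sephs2 (0.57 ± 0.18, adjusted p = 0.0278, limma). That call was lost without any 1 of normal lungs 2, 3, 4 and 6 and tumours 1, 3 and 5, with adjusted p up to 0.0678. It was also lost without normal lungs 2 and 4 together (0.135), without an intensity trend (0.0544) and in both fits that use Eif2s3y (0.236 and 0.241). Selenop, the carrier of selenium in plasma, was at 0.03 ± 0.19. Of 13 measured sources of superoxide or hydrogen peroxide only Nox4 passed, an NADPH oxidase of vessel walls and mesenchyme, which fell from 2122 ± 471 to 279 ± 140.1 (-2.95 ± 0.26, adjusted p = 1.16e-06). Cybb, the oxidase subunit of phagocytes, was at 0.11 ± 0.36. Peroxisome biogenesis, the assembly of the organelle that holds catalase, had 2 of 13 genes higher, Pex26 (0.74 ± 0.15) and Pex2 (0.47 ± 0.11), and none lower.

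**Figure D5:**
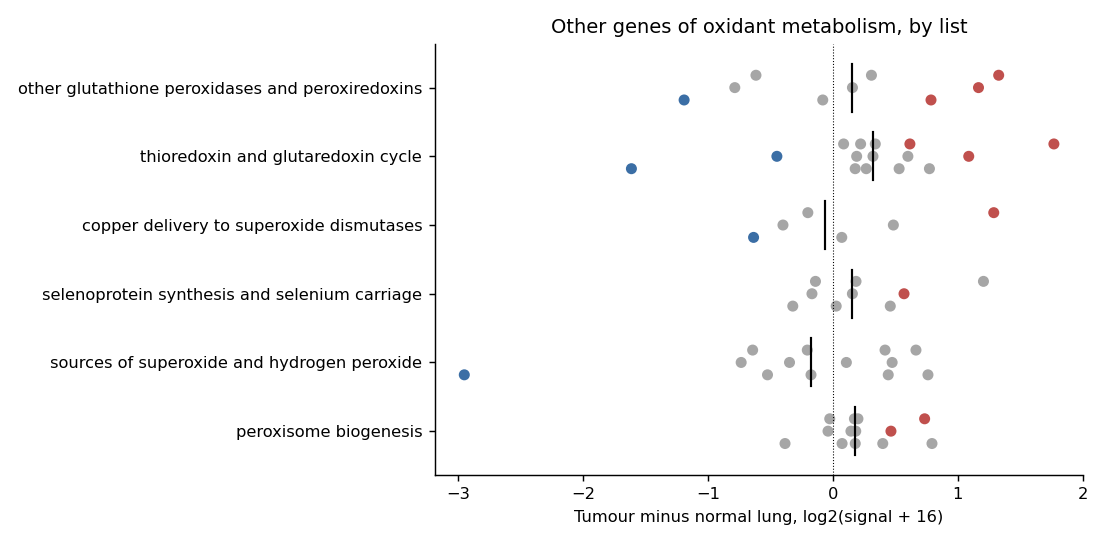
Difference of each gene of 6 lists around the paraoxonases and peroxide enzymes, on the log2(signal + 16) scale. Red points rose and blue points fell past the threshold, grey points did not pass, and black bars are list medians, which run from -0.17 to 0.32.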

How the data were processed

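The authors deposited 1 signal intensity per probe set and array, from biotin-labelled RNA (the labels' protocols); the submitters' processing notes name MAS5, whose version and settings are not given in the sources used here. The 2% trimmed mean was the same on every array, so the deposited scaling was kept, and no detection calls were used. Such scaling leaves array medians free: they were 151 to 164 in normal lungs and 126 to 149.8 in tumours. Precision is limited by the number of arrays.

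After leaving out 64 array controls, 45037 probe sets were fitted as log2(signal + 16) by lmFit and trended eBayes of limma (version 3.58.1, R version 4.3.3), 6 arrays against 6 without covariates, two-sided, adjusted by Benjamini-Hochberg over all of them. The offset shrinks differences of dim probe sets. Symbols came from GEO's platform annotation. The fit was tested on simulated data. Deviations from the group means of same-numbered samples were uncorrelated over all probe sets (correlations from -0.02 to 0.02). This gave no sign that numbers pair them. It cannot exclude pairing, since a tumour and a lung of the same mouse need not share such deviations.

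Members and lists were chosen with earlier results of these data known. The rule for names took the 10 members, the 2 called genes of smallest adjusted p per direction in each pathway list, all called genes where 5 or fewer were called, and 3 genes of closest profile. Other genes, given as values, were chosen after their values were seen. Alternatives covered offset, scaling, dim probe sets, trend, weights, block, probe set choice, left-out arrays and Eif2s3y. Promoters came from RefSeq (GRCm38.p6); tables used Python 3.11.15, numpy 2.4.6 and pandas 2.3.3.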

Additional observations from a re-analysis of the deposited data

How the results depend on the processing

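The falls of Pon1, Sod3 and Gpx3 passed in all 25 alternatives, with differences from -5.07 to -4.49, from -3.32 to -2.55 and from -2.72 to -2.17. Pon2 passed in 23 and Pon3 in 24. With Eif2s3y as a covariate Pon2 was at 0.45, Pon3 at 0.75, Sod1 at -0.066 and 0 members rose; 2603 probe sets were higher and 4069 lower. Without the tumours with Eif2s3y Pon2 was at 0.42, Sod1 at -0.10 and 1 member rose. These fits hold fewer samples or more terms. Quantile normalization gave Sod1 -0.16 and Cat -0.044. Median centring gave Sod2 0.084 and 7431 higher probe sets, against 4529. Sod1 was at -0.25 on a probe set without a shared ending. Without normal lungs 2 and 4 together 3003 probe sets were higher. The median difference over all probe sets was -0.06 as reported, and quantile normalization moved it to 0.05 and median centring to 0.13, and the share of calls that were higher went from 41.9% to 50.6% and 61.9%, so differences near these shifts have no settled direction. Leaving out 1 array moved Sod1 between -0.058 and 0.088, Cat between -0.021 and 0.46 and Gpx2 between -0.76 and 0.039, none past the threshold; Sod1 turned negative without normal lung 1 or 5 or tumour 4 or 5, Cat without tumour 3, and Gpx2 turned positive without tumour 6. With the replicate number as a block 2 members rose and 3 fell, Pon2 with adjusted p = 0.0308 (limma), and no member's call changed. Among the called genes of the pathway lists Txnip lost its call (adjusted p = 0.0612), and named genes outside those lists were not checked. Causes of these changes were not tested. Signals near the offset of 16, such as those of Asb4, carry little information.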

Other observations

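The genes whose log2 profile over the 12 arrays, centred on its own mean, lay closest to that of Pon1 were Mapt, the gene of tau, Angpt1, a ligand of the endothelial receptor Tek, and Tcf21, which encodes a mesenchymal transcription factor. Their root mean square differences from Pon1 were 0.37, 0.44 and 0.45 log2 units. Mapt was at 3563 ± 770 in normal lungs and 139 ± 107 in tumours, Angpt1 at 2459 ± 364 and 150.1 ± 110.2, and Tcf21 at 8251 ± 626 and 464 ± 424 (SD, n = 6 each).

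Closest to Pon3 were Acly, which makes cytosolic acetyl-CoA for lipid synthesis, Phkb, a subunit of phosphorylase kinase, and Gstt3, a glutathione transferase, with root mean square differences of 0.16, 0.19 and 0.19. Acly was at 4110.3 ± 213 in normal lungs and 8317 ± 3212 in tumours, Phkb at 681 ± 64 and 1200.4 ± 575, and Gstt3 at 699 ± 95.9 and 1574 ± 574 (SD, n = 6 each). The likeness was computed over all arrays, so the difference between the groups is part of it.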
